A study of Mus musculus with 194 samples.

Results

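Insertions of a calling card transposon were compared between cortices of 3 Frontflip_GFAPCre mice and 6 Syn1Cre mice, 9 of the 46 animals of the series, which were taken by their labels. Calling cards record where on the genome a transposase has acted: the enzyme pastes a reporter transposon into TTAA sequences, and open or regulatory DNA receives more of it. The transposon used here reports itself through RNA that reads out into the flanking genome. All animals of these groups received AAV by injection at postnatal day 0 to 1, and each cortex was divided into 10 pieces whose RNA was isolated and indexed separately, per the labels' protocols. One deposited table holds the insertions of one animal.

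The groups are named for Cre lines and, in part, for a construct. Syn1Cre refers to Cre under the synapsin 1 promoter, which is used to reach neurons, and GFAPCre to Cre under the GFAP promoter, which is used to reach astrocytes and which some lines also switch on in progenitors. Which lines were used, their background strain, the age at collection, the construct called Frontflip and the construct of the Syn1Cre animals are not given in the sources used here. The groups compared differ in the named line and may differ in construct, and the parts of these cannot be told apart. Groups set beside the comparison were GFAPCre without the word Frontflip (6 animals) and the Cre-negative groups Frontflip_GFAPCreNeg (3 animals) and Syn1CreNeg (6 animals). Syn1Cre animals 1 to 3 and 4 to 6 were sequenced in separate pools, and the model has no term for this. Mean reads per insertion were 3.00 to 3.70 in animals 1 to 3, 10.8 to 20.8 in animals 4 to 6 and 1.74 to 2.01 in Frontflip_GFAPCre. The labels name no litters, and p-values measure the spread between these animals.

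Astrocytes take up glutamate through Slc1a2 and Slc1a3 and buffer potassium and water, and their chromatin is shaped by factors such as Sox9 and Nfia. Cortical interneurons make GABA with Gad1 and Gad2. They arise from the ventral forebrain under Dlx and Lhx6 control, whereas glutamatergic projection neurons arise in the cortex itself under factors such as Neurod6.

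To show what an insertion site is, 4 promoters of listed genes are given from RefSeq (GRCm38.p6), 5′ to 3′ on the strand of the gene, with TTAA in capitals. They were picked, after the values were seen, because a site in each held insertions in all 6 Syn1Cre animals. Promoters of other listed genes, such as Dio2, Fgfr2 and Zeb2, met this condition too, so the 4 are examples and not a sample of them. Gjb6 encodes an astrocyte gap junction protein (chr14:57133562-57133861, minus strand), Ptprz1 a phosphatase receptor of glia (chr6:22875252-22875551, plus strand), Nfia an astroglial transcription factor (chr4:97581693-97581992, plus strand) and Kcnc2 a potassium channel of fast-firing interneurons (chr10:112269767-112270066, plus strand).
Gjb6: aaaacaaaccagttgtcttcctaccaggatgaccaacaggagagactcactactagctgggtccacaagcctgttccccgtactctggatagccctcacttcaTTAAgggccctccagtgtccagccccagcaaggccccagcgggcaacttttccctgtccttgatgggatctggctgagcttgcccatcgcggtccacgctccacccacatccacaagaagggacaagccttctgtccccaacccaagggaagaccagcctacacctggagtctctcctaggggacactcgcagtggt
Ptprz1: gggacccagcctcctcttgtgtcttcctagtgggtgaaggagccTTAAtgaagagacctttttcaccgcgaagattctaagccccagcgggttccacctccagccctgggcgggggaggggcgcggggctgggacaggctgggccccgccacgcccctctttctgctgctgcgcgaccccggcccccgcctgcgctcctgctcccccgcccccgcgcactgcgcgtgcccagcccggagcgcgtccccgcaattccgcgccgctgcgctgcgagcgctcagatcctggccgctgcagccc
Nfia: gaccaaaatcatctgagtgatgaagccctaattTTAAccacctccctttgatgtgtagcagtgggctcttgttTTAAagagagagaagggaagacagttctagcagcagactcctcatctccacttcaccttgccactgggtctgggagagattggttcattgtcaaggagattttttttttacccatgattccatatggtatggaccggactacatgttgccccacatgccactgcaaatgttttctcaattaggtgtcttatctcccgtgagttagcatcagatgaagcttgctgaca
Kcnc2: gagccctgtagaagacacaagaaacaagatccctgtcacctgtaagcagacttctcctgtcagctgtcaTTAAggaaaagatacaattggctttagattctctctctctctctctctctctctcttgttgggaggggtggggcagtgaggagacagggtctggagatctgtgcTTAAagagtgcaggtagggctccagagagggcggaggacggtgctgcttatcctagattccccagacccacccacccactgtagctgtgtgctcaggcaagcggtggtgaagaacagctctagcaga

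The Frontflip_GFAPCre animals held 200629, 156877 and 159310 insertions on chromosomes 1 to 19. The Syn1Cre animals held between 432664 and 1332946, so the groups did not overlap, and the ratio of geometric means was 0.201 (exact two-sided permutation test, p = 0.0119, the smallest that 3 animals against 6 can give, adjusted p = 0.0357 over 3 tests). Between 55.8% and 63.3% of Frontflip_GFAPCre insertions rested on 1 read, against 10.0% to 44.5% in Syn1Cre. The share of insertions inside protein-coding genes was 57.5% ± 0.317 (SD, n = 3) against 58.3% ± 1.45 (SD, n = 6; exact permutation p = 0.452). The share within 1 kb of a gene end was 8.07% ± 0.0984 (SD, n = 3) against 7.65% ± 0.442 (SD, n = 6; exact permutation p = 0.190, adjusted 0.286). Counted per line of the tables, neither share passed the test. Over distinct positions the share near gene ends was 1.28 percentage points higher in Frontflip_GFAPCre (exact permutation p = 0.0119) and the share inside genes 0.13 higher, while with at least 2 reads the difference near gene ends was -0.067, so the direction depends on how insertions are counted. Within Syn1Cre the distinct-position share near gene ends was 6.83% in animal 5, with the fewest insertions, and 5.33% in animal 4, with the most. The part of depth in the difference between the groups was not tested. The groups compared shared no sequencing pool, which leaves pools and groups confounded, while 14 of the 25 pools with a Frontflip_GFAPCre piece also held Syn1CreNeg pieces and 14 held Frontflip_GFAPCreNeg pieces.

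One library stood apart before any test. Syn1Cre animal 5, the Syn1Cre animal with the fewest insertions, had a summed level of 29637 CPM (insertions scaled by library size) over the 5 astrocyte and astroglial gene lists described below. The other Syn1Cre animals had 12123 to 15506. Frontflip_GFAPCre had 27120, 30839 and 38673. Animal 5 was the highest Syn1Cre animal at 67 of the 71 tested loci of those lists, and results that rest on it are given with and without it.

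Insertions were counted per gene locus, meaning a protein-coding gene with 10 kb on each side, and tested over all loci with edgeR. Levels are CPM, insertions scaled by the library size after TMM as edgeR gives them, and a log2 fold change is Frontflip_GFAPCre minus Syn1Cre. Of 11833 loci tested, 401 passed an adjusted p of 0.05 (3.39%), 300 higher (2.54%) and 101 lower (0.854%) in Frontflip_GFAPCre. With scaling by total insertions in place of TMM, 454 passed, 267 higher and 187 lower, so the share of higher loci moved from 74.8% to 58.8%, and the median of all loci moved from -0.04 to -0.16. The animals of the groups did not overlap at 1572 of the tested loci (13.3%), among them 208 of the loci called higher and all 101 called lower. The count of loci rested on single libraries: it was 57 without Frontflip_GFAPCre animal 3, 175 without Frontflip_GFAPCre animal 2 and 822 without Syn1Cre animal 5.

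Of 62 genes in 4 lists of GABA synthesis, Dlx and interneuron genes, 50 were tested: 20 were lower in Frontflip_GFAPCre, 3 were higher and 27 did not pass, with a median log2 fold change of -0.86. With Syn1Cre animals 4 to 6 only, 16 of 36 tested were lower, with the median also at -0.86, and without flanks 12 of 40. The Dlx homeobox genes, which specify these cells in the embryo, were lower at every locus tested. Dlx1 held 88.1, 20.0 and 34.1 CPM in the 3 Frontflip_GFAPCre animals, against 297 at the lowest, 332 at the median and 431 at the highest Syn1Cre animal. Every Frontflip_GFAPCre animal lay far below every Syn1Cre animal. The log2 fold change of Dlx1 was -2.75 ± 0.29 (SE, edgeR adjusted p = 7.05e-06), the lowest adjusted p of any listed gene. In tissue of mixed cells, fewer insertions from a cell type and fewer labelled cells of that type cannot be told apart.

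The paired Dlx5 and Dlx6 genes moved as Dlx1 did. Dlx6 held 36.3, 33.4 and 0 CPM in Frontflip_GFAPCre and 178 to 226 in Syn1Cre (log2 fold change -3.08 ± 0.34, adjusted p = 1.55e-05). Dlx5 held 15.5, 20.0 and 0 against 97.3 to 119 (-3.09 ± 0.39, adjusted p = 1.07e-04). Dlx2 held 41.5, 0 and 20.4 against 91.1 to 160 (-2.23 ± 0.42, adjusted p = 0.00307). Dlx1 lies 9426 bp from Dlx2 and Dlx5 lies 9830 bp from Dlx6, so each pair shares insertions in its flanks and is not independent. Dlx3 and Dlx4 held too few insertions to be tested. Fixed steps of 5 kb along Dlx1 showed the shortfall on both sides of the gene: the outermost step below the gene held 7 insertions in Frontflip_GFAPCre against 577 in Syn1Cre (13.5 against 106 CPM).

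The enzymes that make GABA were almost empty in Frontflip_GFAPCre. Gad2 held 5.18, 0 and 6.82 CPM in Frontflip_GFAPCre, from 2 insertions in all, against 31.1, 40.4 and 62.1 at the lowest, median and highest Syn1Cre animal, from 265 insertions. The pooled rate in Syn1Cre was 12.6 times that in Frontflip_GFAPCre (95% exact interval 3.45 to 104, for counting error only; adjusted p = 0.00448). Gad1 held 1 insertion against 233, a ratio of 22.1 with an interval of 3.93 to 877 (adjusted p = 0.00205). Slc32a1, the vesicular GABA transporter, held 1 against 120 and did not pass (adjusted p = 0.0702). Abat, the enzyme that breaks GABA down, which astrocytes also use, did not pass either. In sum 2 of the 5 genes of the list passed, both lower.

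Transcription factors of interneurons split by direction. Of 20 tested among 24 listed, 5 were lower and 3 higher, with a median log2 fold change of -0.30. Sp9, a factor of newborn interneurons, held 15.5, 6.68 and 6.82 CPM against 74.0 to 134 (-3.17 ± 0.47, adjusted p = 5.20e-04). Maf and Lhx6, which act in interneurons of the medial ganglionic eminence, held 3 and 2 insertions in Frontflip_GFAPCre. The pooled rates in Syn1Cre were 9.65 times (interval 3.27 to 47.0; adjusted p = 0.00207) and 7.50 times as high (2.04 to 62.4; adjusted p = 0.0220). St18 held 3 insertions against 182 (adjusted p = 0.0418), and the chromatin organiser Satb1, which projection neurons also express, was lower by less (-0.77 ± 0.16, adjusted p = 0.00501). The 3 that were higher are used in more cell types than interneurons: Meis2 (0.74 ± 0.14, adjusted p = 0.00307), Nr2f1 (0.83 ± 0.17, adjusted p = 0.00519) and Sall3 (1.39 ± 0.36, adjusted p = 0.0313).

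Genes of interneuron subtypes and adhesion had 9 of 21 tested loci lower and none higher among 27 listed, with a median of -0.87. Erbb4, the neuregulin receptor of interneurons, held 192, 73.4 and 95.4 CPM in Frontflip_GFAPCre. In Syn1Cre it held 425 at the lowest animal, 554 at the median and 705 at the highest (log2 fold change -2.18 ± 0.25, adjusted p = 1.57e-05). Near the upper end of the gene, 1070 kb from the lower end, one 5 kb step held 0 insertions in Frontflip_GFAPCre and 253 in Syn1Cre. Zfp536 (-1.31 ± 0.17, adjusted p = 1.77e-04), the secreted Nxph1 (-1.99 ± 0.27, adjusted p = 1.90e-04), Kcnc2 (-1.60 ± 0.23, adjusted p = 3.92e-04) and the kainate receptor subunit Grik1 (-1.59 ± 0.25, adjusted p = 8.36e-04) followed. Nxph2 held 2 insertions against 309 and somatostatin, Sst, 3 against 273, with pooled rates 14.7 times (interval 4.02 to 122; adjusted p = 0.00196) and 8.63 times (2.92 to 42.1; adjusted p = 0.00676) as high in Syn1Cre. Reln and Kcnip1 were the others that passed. Pvalb, Vip, Calb2, Htr3a, Crh and Tac1 were among the 6 not tested for want of insertions. Over all 4 lists of this kind the animals of the groups did not overlap at any of the 20 loci called lower. The same held at all 101 loci called lower among all loci tested, so it is not particular to these lists.

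**Figure D1:**
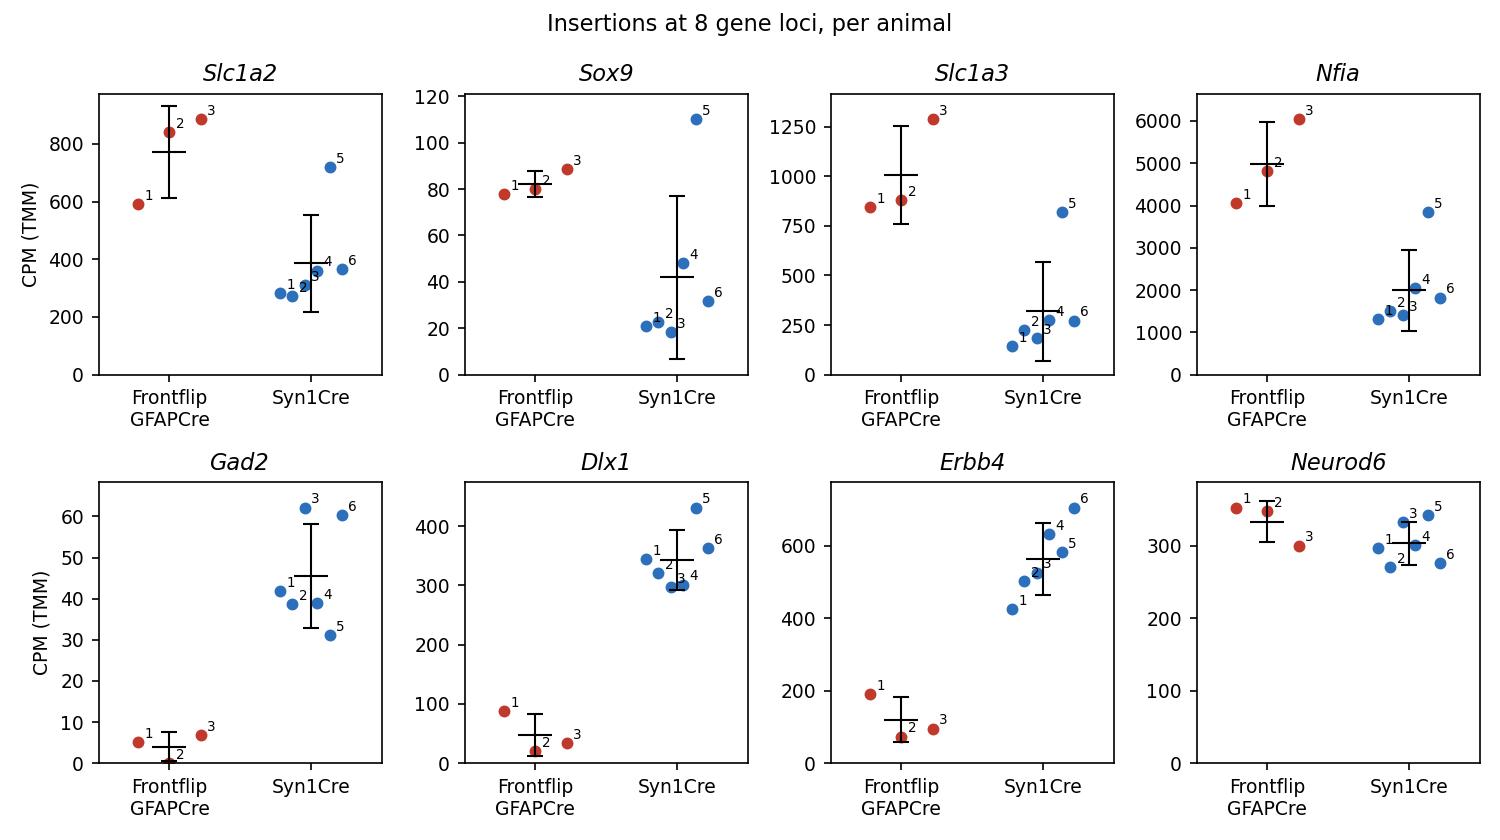
CPM after TMM scaling at 8 loci in each animal (points, numbered by animal), with the mean and SD of each group (bars), for 3 Frontflip_GFAPCre and 6 Syn1Cre animals. Gad2, Dlx1 and Erbb4 separate the groups, Syn1Cre animal 5 sits above the other Syn1Cre animals at the 4 astrocyte loci in the upper row, and Neurod6 overlaps.

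Astrocyte loci were higher in Frontflip_GFAPCre. Of 79 genes in 5 lists, 71 were tested: 27 passed, all higher, none passed lower, and 68 had a log2 fold change above 0, with a median of 1.10. With Syn1Cre animals 4 to 6 only, 10 of 63 tested passed and the median was 0.71. With insertions of at least 2 reads 15 of 69 passed, and without flanks 11 of 56. The 27 rest on single animals to a degree that the interneuron loci do not. In the GABA, Dlx and interneuron lists 15 loci were called lower without Frontflip_GFAPCre animal 3, and the calls of Sst, Dlx2 and Satb1 were lost. The call of Sst was also lost without Frontflip_GFAPCre animal 1. Without Frontflip_GFAPCre animal 3, 1 astrocyte list locus passed (Emx2), with the median still at 0.84. Without Frontflip_GFAPCre animal 2, 16 passed. Without Syn1Cre animal 5, 48 passed, with a median of 1.27. Animal 5 was the highest Syn1Cre animal at all 27 loci, and the groups overlapped at 13 of them.

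Slc1a2, the main glutamate transporter of astrocytes, held 591, 841 and 886 CPM in Frontflip_GFAPCre, against 273, 336 and 719 at the lowest, median and highest Syn1Cre animal. Syn1Cre animal 5 lay within the Frontflip_GFAPCre range, and the next Syn1Cre animal was at 365. The log2 fold change was 1.02 ± 0.23 (SE, adjusted p = 0.0136), and the call was lost without Frontflip_GFAPCre animal 2 or 3. Slc1a3, the second transporter, held 845, 881 and 1288 against a median of 250 and a highest value of 819, so the groups did not overlap (1.69 ± 0.33, adjusted p = 0.00448). Grm3, a metabotropic glutamate receptor of astrocytes, held 1653, 2023 and 2801 against 527 to 1844 (1.36 ± 0.27, adjusted p = 0.00519). Glul, which turns glutamate into glutamine, held 104, 127 and 157 against 39.6 to 98.2 (1.27 ± 0.27, adjusted p = 0.00826). These were 4 of the 8 tested among 10 listed genes of glutamate and transmitter handling, with a median of 1.14, and Gpt2 was the 1 gene with a value below 0 (-0.56, adjusted p = 0.607).

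The 5 kb before the lower end of Slc1a2 held 147 CPM in Frontflip_GFAPCre and 49.0 in Syn1Cre, the first 5 kb inside it 94.8 and 57.5, and the fourth inside it, which starts 15 kb in, 27.1 and 13.8. Its neighbour Pamr1, a protease-like gene that lies 15197 bp away and shares flanking bases with the locus of Slc1a2, was among the 10 highest named loci. Pamr1 held 990, 1295 and 1861 against a median of 259 and a highest value of 848 in animal 5 (1.99 ± 0.30, adjusted p = 6.24e-04). One 5 kb step of Pamr1, 70 kb from the lower end of its span, held 420 CPM against 89.6.

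Genes of coupling, ion and water transport had 5 of 9 tested loci higher, with a median of 1.26. Kcnj10, the potassium channel that astrocytes use to buffer potassium, held 187, 167 and 300 CPM against 41.8 to 168 (1.64 ± 0.33, adjusted p = 0.00501). The highest Syn1Cre animal was again animal 5, and it overlapped the lowest Frontflip_GFAPCre animal. The adhesion molecule Hepacam (1.39 ± 0.28, adjusted p = 0.00519), the sodium pump subunit Atp1b2 (1.23 ± 0.33, adjusted p = 0.0382) and the bicarbonate transporter Slc4a4 (1.01 ± 0.27, adjusted p = 0.0343) were among the others that passed. The calls of Atp1b2 and Slc4a4 were lost when any animal other than Syn1Cre animal 5 was left out. The water channel Aqp4 held 88.1, 114 and 130 against 16.1 to 125 and did not pass (1.26 ± 0.47, adjusted p = 0.156). The gap junction gene Gja1 held 82.9, 100.2 and 157 against 23.6 to 151 and did not pass either (1.10 ± 0.49, adjusted p = 0.257). Both passed when Syn1Cre animal 5 was left out.

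Metabolic and secreted products had 6 of 14 tested loci higher among 17 listed, with a median of 1.14. Mt3, a brain metallothionein, held 176, 280 and 361 CPM against 57.9 to 165 without overlap (1.64 ± 0.26, adjusted p = 8.36e-04). Cpe, a processing enzyme that neurons also use (1.48 ± 0.26, adjusted p = 0.00180), the matrix protein Sparcl1 (1.49 ± 0.28, adjusted p = 0.00289), tissue factor F3 (1.50 ± 0.34, adjusted p = 0.0148), the protease inhibitor Cst3 (1.74 ± 0.43, adjusted p = 0.0220) and Mt1 (1.12 ± 0.28, adjusted p = 0.0225) were the others. Gfap, the intermediate filament whose promoter names the Cre line, held 41.5, 20.0 and 20.4 against 11.1 to 29.6 and did not pass (0.52 ± 0.47, adjusted p = 0.652).

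Membrane receptors of astroglia had 4 of 17 tested loci higher, with a median of 0.99. The BMP receptor Bmpr1b held 969, 1195 and 1506 CPM against 360 to 1013 (1.15 ± 0.23, adjusted p = 0.00519). Ttyh1 (0.97 ± 0.23, adjusted p = 0.0165), Ptprz1 (1.29 ± 0.30, adjusted p = 0.0171) and the matrix proteoglycan Bcan (1.48 ± 0.37, adjusted p = 0.0224) also passed.

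Transcription factors of astroglia had 8 of 23 tested loci higher, with a median of 0.71. Nfia held 4068, 4821 and 6046 CPM against 1318, 1664 and 3854 at the lowest, median and highest Syn1Cre animal (1.32 ± 0.23, adjusted p = 0.00188). Emx2, a dorsal forebrain factor, held 98.5, 120 and 157 against 25.1 to 57.5 (1.74 ± 0.28, adjusted p = 8.36e-04) and passed with any one animal left out. Sox2, a factor of progenitors and astroglia, held 1005, 1028 and 1370 against 350 to 944 (1.22 ± 0.23, adjusted p = 0.00307). Zbtb20 (1.38 ± 0.27, adjusted p = 0.00448), the inhibitor of differentiation Id3 (2.05 ± 0.41, adjusted p = 0.00494), Sox21 (2.12 ± 0.44, adjusted p = 0.00599), Nfib (0.57 ± 0.14, adjusted p = 0.0190) and Rorb, also a layer 4 neuron factor (0.66 ± 0.18, adjusted p = 0.0467), were the others.

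Sox9, a defining astrocyte factor, held 77.7, 80.1 and 88.6 CPM in Frontflip_GFAPCre, against 18.2, 27.3 and 110 at the lowest, median and highest Syn1Cre animal. Animal 5 was above all Frontflip_GFAPCre animals and the other Syn1Cre animals reached 48.2. Its fold change did not pass (1.14 ± 0.49, adjusted p = 0.235), and it passed without animal 5. A run of 5 adjacent called windows, chr11:112800001-113050000, lay 12244 bp from Sox9 and contained no protein-coding gene (median log2 fold change 2.13). Runs of this kind were looked for after the window results were seen.

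**Figure D2:**
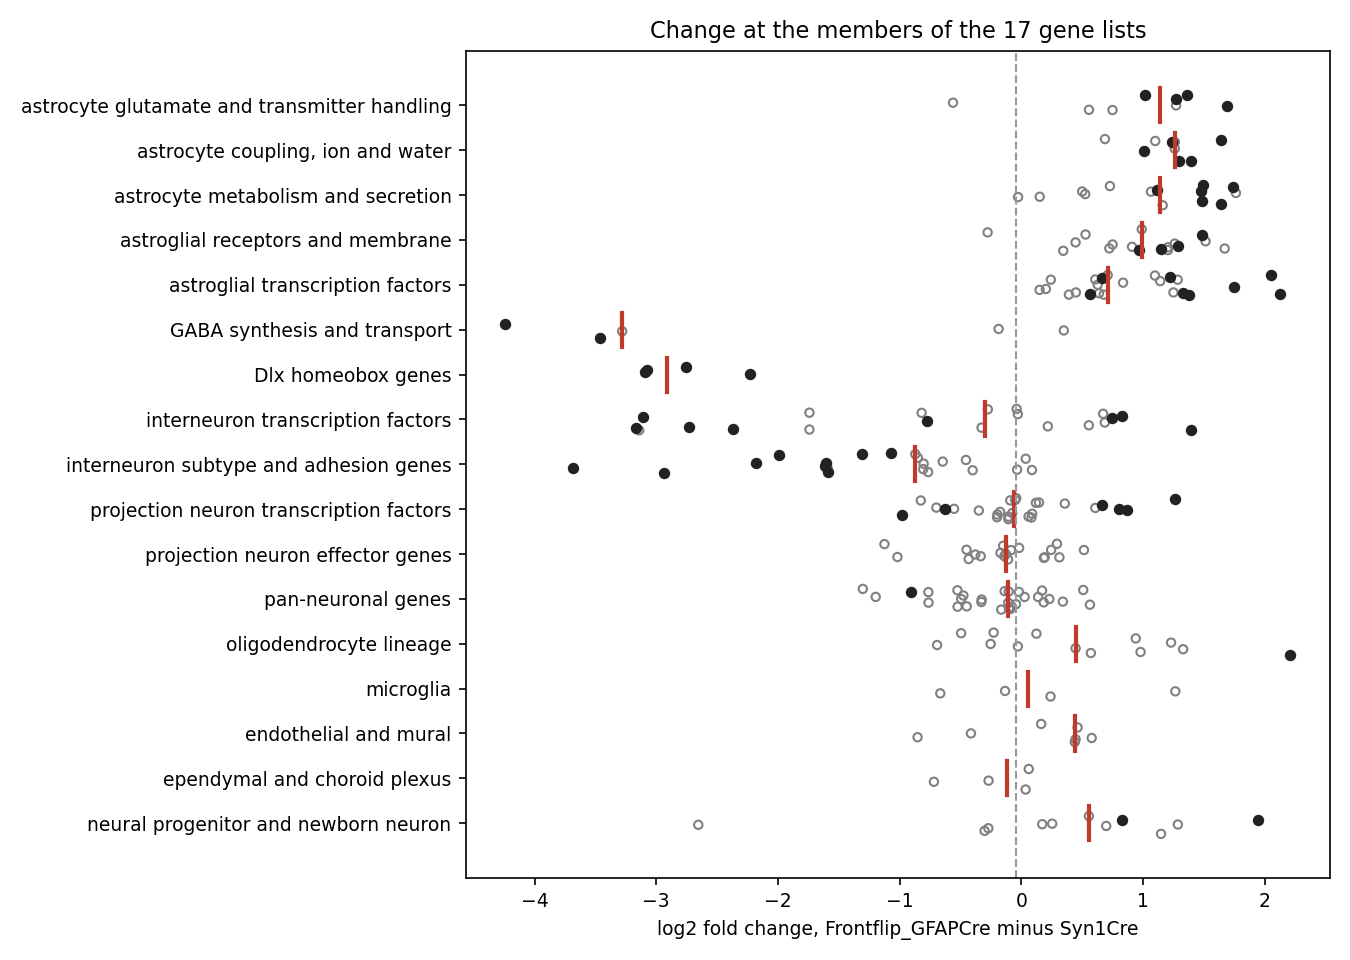
Log2 fold change (Frontflip_GFAPCre minus Syn1Cre) of every tested member of the 17 gene lists, filled where the edgeR adjusted p is under 0.05 and open otherwise, with the list median (red bar) and the median of all loci (dashed line, -0.04). The 5 astrocyte lists have medians between 0.71 and 1.26, the Dlx list one of -2.92, and the projection neuron and pan-neuronal lists lie near the median of all loci.

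Projection neuron factors passed the test in both directions. Neurod6, a factor of projection neurons, held 352, 347 and 300.0 CPM against 270 to 343 and did not pass (0.15 ± 0.16, adjusted p = 0.729), and Slc17a7, the vesicular glutamate transporter, held 3 insertions against 70 (adjusted p = 0.562). Of 26 projection neuron factors tested, 4 were higher and 2 lower, with a median of -0.06. Of all loci tested, 2.54% were higher and 0.854% lower. Tshz2 (0.87 ± 0.16, adjusted p = 0.00258), Pou3f2 (1.26 ± 0.27, adjusted p = 0.00824), Pou3f3 (0.80 ± 0.19, adjusted p = 0.0195) and Rorb, which stands in 2 lists, were higher. Pou3f2 and Pou3f3 are also expressed in neural progenitors. Cux2, which upper layer neurons and interneurons share, was lower (-0.98 ± 0.19, adjusted p = 0.00448, with 98.5 to 116 CPM against 193 to 240), as was Bcl11b (-0.63 ± 0.17, adjusted p = 0.0420).

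None of 19 effector genes of projection neurons passed with edgeR (median -0.13) or with DESeq2, and 4 had an unadjusted p under 0.05, as had 1918 of all loci. Of 29 pan-neuronal genes 1 passed, Elavl2, an RNA-binding protein (-0.91 ± 0.19, adjusted p = 0.00546), with a median of -0.11. The share of all loci that passed was 3.39%. At an unadjusted p under 0.05 there were 9 pan-neuronal genes, 3 higher and 6 lower, and DESeq2 called Elavl2 and Camta1. The summed level of the effector genes was 4168 to 5184 CPM in Frontflip_GFAPCre and 4851 to 5419 in Syn1Cre, which overlap.

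Markers of other cells were read for the same animals. Of 20 oligodendrocyte lineage genes 13 were tested and 1 passed, Olig1, which astroglial progenitors also use. Among all loci tested 3.39% passed, 2.54% higher and 0.854% lower. Olig1 held 93.3, 154 and 136 CPM against 7.38 to 86.2 (2.21 ± 0.47, adjusted p = 0.00735). Olig2, 41091 bp away, did not pass (0.98 ± 0.61, adjusted p = 0.467), and neither did Mbp (0.12 ± 0.19, adjusted p = 0.828). The summed oligodendrocyte level was 988 to 1037 in Frontflip_GFAPCre and 935 to 980 in Syn1Cre. None of 4 tested microglial, 7 endothelial and mural or 4 ependymal genes passed with edgeR. At an unadjusted p under 0.05 there was 1 microglial gene, P2ry12, which DESeq2 called, and 0 of the others, where DESeq2 called 0. Olig1 was not called by DESeq2. Cx3cr1 of microglia and Cldn5 of endothelium held 0 insertions in Frontflip_GFAPCre, and 21 and 11 in Syn1Cre. Of 11 tested progenitor and newborn neuron genes 2 were higher, the matrix protein Tnc (1.95 ± 0.39, adjusted p = 0.00501) and the tubulin Tubb2b (0.83 ± 0.21, adjusted p = 0.0231). The part of these cells in the astrocyte result was not tested.

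The naming rule put several neighbours of astrocyte genes among the 10 highest loci. Tmem247 held 67.4, 93.5 and 75.0 CPM against 9.84 to 28.7 (2.51 ± 0.33, adjusted p = 1.77e-04). Its nearest neighbour Atp6v1e2, 21741 bp away and in no list, also passed (1.73 ± 0.31, adjusted p = 0.00205). Rnase13 held 119, 140 and 191 against 25.8 to 81.4 (2.16 ± 0.31, adjusted p = 4.44e-04), and it lies 7360 bp from Ndrg2, an astrocyte gene whose own locus shares its flank (2.02 ± 0.32). Tppp2 lies 660 bp from Rnase13, shares its flanks and had 2.15 ± 0.32 (adjusted p = 5.20e-04). Capn9 held 212, 227 and 211 against 24.6 to 115 (2.20 ± 0.31, adjusted p = 3.82e-04). It lies 6355 bp from Agt, the angiotensinogen gene of astrocytes, which did not pass (0.61 ± 0.53, adjusted p = 0.636), and 17024 bp from 2310022B05Rik, which passed (1.58 ± 0.43, adjusted p = 0.0417). Cstdc2 lies 20759 bp from Cst3 and had a log2 fold change of 2.11 ± 0.39 (adjusted p = 0.00300), and 1700012B07Rik and Gm12695 had 2.45 ± 0.39 and 2.21 ± 0.37. The neighbours were looked up after the values were seen. With Olig1, Sox21, Id3 and Pamr1 these are the 10, and Syn1Cre animal 5 was the highest Syn1Cre animal at each.

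The 10 lowest loci were interneuron genes with 2 exceptions. Nxph2, Gad2, Sp9, Maf, Dlx5, Sst, Dlx1 and Erbb4 are described above. Tmem232 held 10.4, 20.0 and 6.82 CPM against 40.7 to 63.8 (-2.16 ± 0.42, adjusted p = 0.00448), and Slc37a1, a sugar phosphate exchanger, 5.18, 13.4 and 13.6 against 31.1 to 58.1 (-2.13 ± 0.51, adjusted p = 0.0182). The call of Slc37a1 was lost without any one of the 3 Frontflip_GFAPCre animals, and that of Tmem232 without Frontflip_GFAPCre animal 3. Of the 101 loci called lower, 5 held 0 insertions in all Frontflip_GFAPCre animals and 17 held 1 to 3 in all.

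Fixed windows of 50 kb were tested without reference to genes. Of 23293 tested, 787 passed (3.38%), 654 higher (2.81%) and 133 lower (0.571%). The higher and lower counts were not compared with each other, as the groups differ in depth. The animals of the groups did not overlap at 2893 windows (12.4%), among them all 133 called lower. The count was 148, 426 and 1611 without Frontflip_GFAPCre animal 3, Frontflip_GFAPCre animal 2 and Syn1Cre animal 5. No protein-coding gene lay in 250 of the higher windows. The window chr15:8750001-8800000, 39194 bp from Slc1a3, held 173, 231 and 310 CPM against 18.5 to 110 (2.54 ± 0.34, adjusted p = 1.39e-04). The window chr11:109750001-109800000 at 1700012B07Rik (2.63 ± 0.34) and the gene-free window chr17:9700001-9750000, 30297 bp from Pabpc6 (2.72 ± 0.49), chr1:41600001-41650000, 743114 bp from the nearest gene Tmem182 (2.53 ± 0.34), and chr4:82700001-82750000, 48738 bp from Zdhhc21 (2.50 ± 0.33), were named with it. So was a window on chromosome 18, 62980 bp from Sall3 (2.58 ± 0.42).

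The lowest named windows held interneuron genes. They were chr6:6850001-6900000 with Dlx5 and Dlx6, with 35.6, 33.0 and 0 CPM against 197 to 249 (-3.22 ± 0.38, adjusted p = 5.87e-05), and chr2:73250001-73300000 with Sp9 and Cir1 (-3.29 ± 0.44, adjusted p = 1.39e-04). The other 4 held 1 or 2 insertions in Frontflip_GFAPCre. These were chr2:70550001-70600000 with Gad1 (1 against 224), chr8:115650001-115700000 at 3253 bp from Maf (1 against 224), chr2:23300001-23350000 with Nxph2 (2 against 287) and chr2:22600001-22650000 with Gad2 and the adjoining Myo3a (2 against 217). The pooled rates in Syn1Cre were between 10.3 and 21.3 times as high, and the widest counting interval was 3.78 to 843.

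Called windows also lay side by side. The longest run of higher windows was 10 windows at chr17:9500001-10000000 around Pabpc6, with a median log2 fold change of 1.93. Slc1a3 and Nfia each had a run of 6 windows, with medians of 1.89 and 1.60, and Ptprz1 one of 5 windows, with a median of 1.74. Runs without a protein-coding gene included 4 windows 397540 bp from Sox2 (median 2.11) and 4 windows 409582 bp from Gja1 (median 1.87). The runs of lower windows were 5 windows over Erbb4 (median -3.72) and 5 over Kcnc2 (median -1.78).

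**Figure D3:**
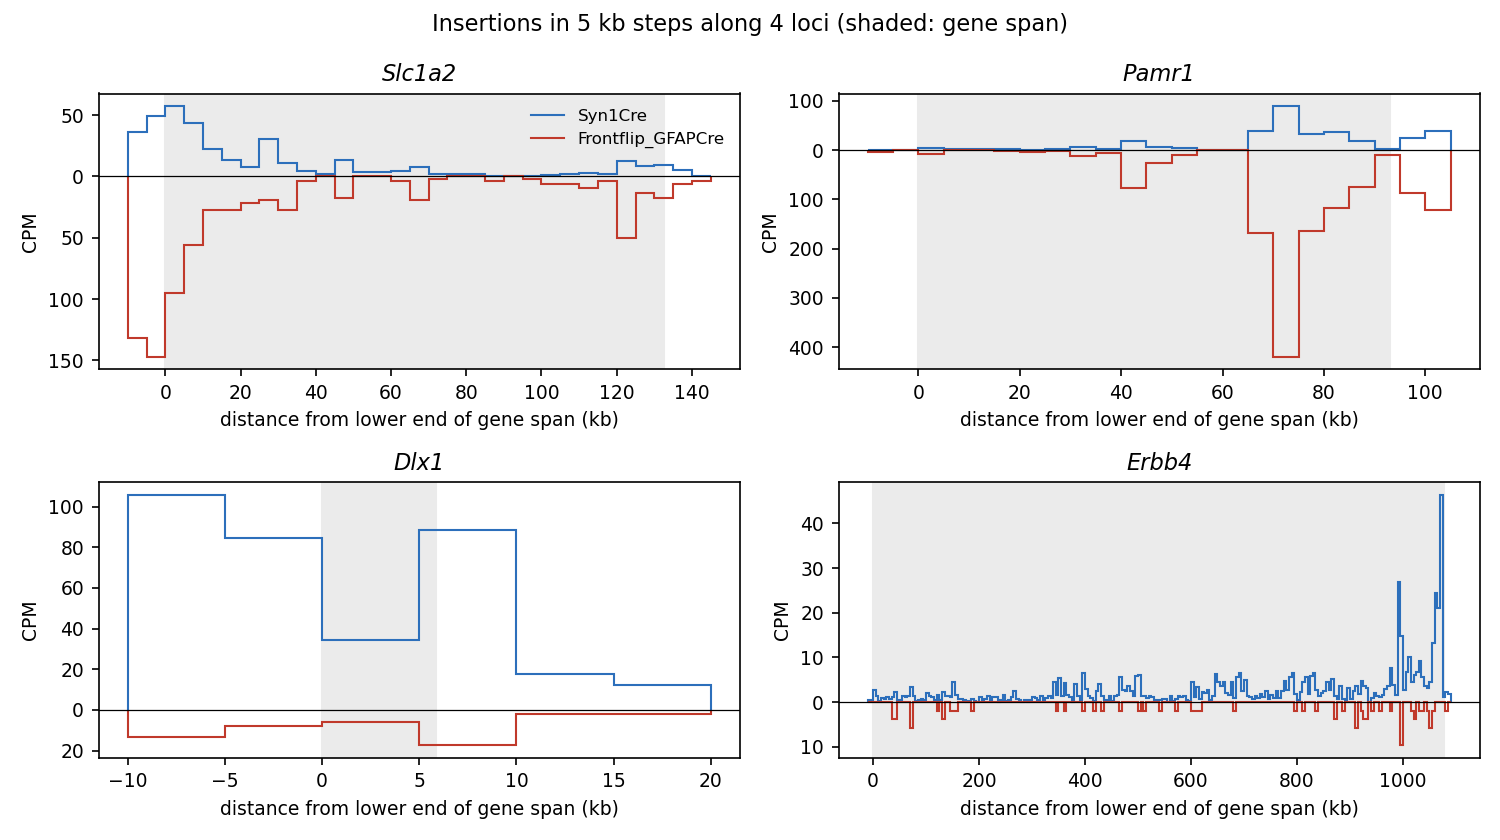
CPM over each group's summed insertions in 5 kb steps from 10 kb below to 10 kb above 4 genes, Syn1Cre upward and Frontflip_GFAPCre downward, against the distance in kb from the lower end of the gene span (shaded). Frontflip_GFAPCre exceeds Syn1Cre at the lower end of Slc1a2 and at 65 to 85 kb of Pamr1, and falls short of it along Dlx1 and at the upper end of Erbb4.

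The same lists were read against GFAPCre, the group with the same named Cre line without Frontflip. These comparisons share the Frontflip_GFAPCre or the Syn1Cre animals with the main one and are given side by side, not as independent results. Of 10240 loci tested between Frontflip_GFAPCre and GFAPCre, 175 passed (1.71%), 150 higher (1.46%) and 25 lower (0.244%) in Frontflip_GFAPCre. The count was 17 without Frontflip_GFAPCre animal 3, 60 without Frontflip_GFAPCre animal 2, 116 without GFAPCre animal 5 and 396 without GFAPCre animal 3. Of 71 tested astrocyte list loci 23 were higher in Frontflip_GFAPCre, none were lower, and the median was 0.67. Between GFAPCre and Syn1Cre 3 of 72 were higher and the median was 0.32, with 251 of all 11278 loci called (2.23%), 107 higher (0.949%) and 144 lower (1.28%). For Slc1a2 the log2 fold change was 0.90 against GFAPCre (adjusted p = 0.00213) and 0.11 for GFAPCre minus Syn1Cre (adjusted p = 0.808). For Cpe these were 1.24 (adjusted p = 2.62e-05) and 0.23 (adjusted p = 0.614), and for Sox2 1.07 (adjusted p = 0.00180) and 0.15 (adjusted p = 0.772).

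Of 37 tested loci of the GABA, Dlx and interneuron lists none was lower in Frontflip_GFAPCre than in GFAPCre and 2 were higher (Meis2 and Nr2f1), with a median of -0.20. Of the 20 loci of these lists called lower than in Syn1Cre, 14 were tested here. Gad2, Nxph2, Maf and Sst were among those not tested. Between GFAPCre and Syn1Cre 25 of 47 tested loci of these lists were lower. Dlx1 had a log2 fold change of -2.53 for GFAPCre minus Syn1Cre (adjusted p = 1.46e-12) and of -0.22 ± 0.34 for Frontflip_GFAPCre minus GFAPCre (adjusted p = 0.847), a p that does not show the groups to be alike. For Erbb4 these were -1.61 (adjusted p = 1.06e-09) and -0.58 ± 0.22 (adjusted p = 0.195).

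Levels in animals without Cre were set beside these. The summed astrocyte level was 53642, 80795 and 56730 CPM in Frontflip_GFAPCreNeg, above every Frontflip_GFAPCre animal, and 30398 to 42932 in Syn1CreNeg, with 13721 to 26281 in GFAPCre. The Frontflip_GFAPCreNeg animals held 9377, 2265 and 5535 insertions in all, a mean that is 3.32% of the Frontflip_GFAPCre mean, so their levels rest on few insertions. The summed Dlx level was 50.2 to 179 in Frontflip_GFAPCre, 679 to 901 in Syn1Cre, 118 to 188 in GFAPCre and 114 to 284 in Syn1CreNeg. In Frontflip_GFAPCreNeg it was 427 in animal 1 and 0 in the other two. The part of insertion without Cre in the differences between Frontflip_GFAPCre and Syn1Cre was not tested.

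**Figure D4:**
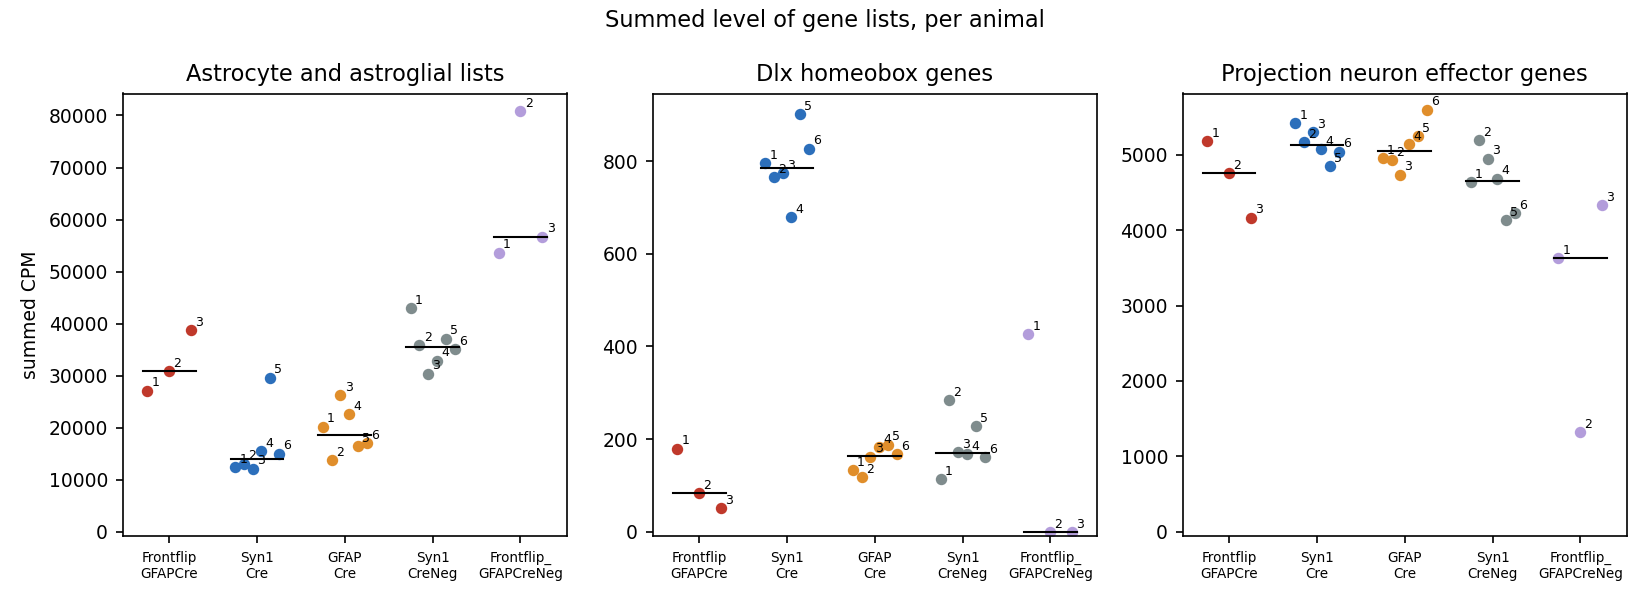
Summed CPM over the loci of 3 sets of gene lists in each animal of 5 groups (points, numbered by animal; bar, median). The astrocyte sum of Frontflip_GFAPCre (27120 to 38673) overlaps Syn1Cre animal 5 and Syn1CreNeg, and the Dlx sum of Syn1Cre (679 to 901) lies above those of Frontflip_GFAPCre, GFAPCre and Syn1CreNeg.

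A test against Syn1CreNeg was added after these levels were seen. Of 3341 loci 129 passed (3.86%), 71 higher (2.13%) and 58 lower (1.74%) in Frontflip_GFAPCre; scaling by total insertions gave 40 higher and 125 lower. The count was 13, 6 and 206 without Frontflip_GFAPCre animals 1, 2 and 3, and 231, 77, 72 and 57 without Syn1CreNeg animals 3, 4, 5 and 6. In the astrocyte lists 1 of 62 tested loci was higher (Lhx2), 5 were lower (Gja1, Slc39a12, Atp13a4, Npas3 and Gli3), and the median was -0.07. Slc1a2 had -0.10 ± 0.14 (adjusted p = 0.734) and Nfia 0.05 ± 0.10 (adjusted p = 0.842). The GABA, Dlx and interneuron lists had 2 of 23 tested loci higher (Nr2f1 and Nr2f2), 0 lower and a median of -0.06. Only 7 of their 20 loci called lower than in Syn1Cre were tested here, and 0 passed. Dlx1 had -0.34 ± 0.35 (adjusted p = 0.637), a p that does not show the groups to be alike. Projection neuron and pan-neuronal lists had 5 of 61 higher and none lower, among them Tshz2 (1.12 ± 0.17, adjusted p = 8.47e-06), Celf4 (0.70 ± 0.14, adjusted p = 0.00199), Lmo4 (0.79 ± 0.20, adjusted p = 0.0205) and Bcl11a (0.51 ± 0.14, adjusted p = 0.0263). Between Syn1CreNeg and Syn1Cre, 61 of 68 astrocyte list loci were higher and 27 of 43 GABA and interneuron list loci lower in Syn1CreNeg, where 2588 of all 8394 loci passed (30.8%), 1459 higher (17.4%) and 1129 lower (13.5%).

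Insertions at the promoter sites printed above are given as a description, since the promoters were picked for the use of a site in Syn1Cre and the locus of Gjb6 did not pass (adjusted p = 0.158). The TTAA at base 104 of the Gjb6 promoter (chr14:57133755-57133758) held 7, 8 and 7 insertions in the Frontflip_GFAPCre animals and 8 to 11 in the Syn1Cre animals, or 42.6 against 10.5 CPM over each group. At base 45 of the Ptprz1 promoter there were 3 in each Frontflip_GFAPCre animal and 4 to 8 in Syn1Cre (17.4 against 6.24 CPM). The second site of Nfia, at base 74, had 2, 5 and 2 against 5 to 12 (17.4 against 9.00), and the first site of Kcnc2, at base 70, had 1, 0 and 0 against 3 to 7 (1.93 against 4.96). The first site of Nfia held 0 against 3 in all. Neuronal promoters also had sites with more CPM in Frontflip_GFAPCre, among them Slc17a6 at base 79 (21.3 against 9.36), Syt1 at base 48 (15.5 against 9.00), Myt1l at base 113 (13.5 against 6.43) and Neurod6 at base 104 (7.74 against 4.22). A site of the astroglial factor gene Nfix, at base 68 of its promoter, held 0 insertions against 26. A site can be counted at most 10 times per strand in an animal, once per cortex piece, so sites used often in the deeper Syn1Cre libraries are held down. Insertions at sites counted 5 times or more made up 2.69% to 3.71% of all insertions in Frontflip_GFAPCre and 7.28% to 10.5% in Syn1Cre. TTAA, which is its own complement, occurs in 52.3% of the 31396 promoter sequences of that length on chromosomes 1 to 19. The promoters of Gad1, Gad2, Dlx1 and Erbb4 in the same table have none.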

How the data were processed

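Calling card libraries were made from RNA of 10 pieces per cortex. The authors deposited one table per animal, in which each line is an insertion with its read count; Novoalign, Bowtie2 and mm10 are listed per the submitters' processing notes, without versions. The tables of 24 of the 46 animals were used. Lines on chromosomes 1 to 19 were counted as insertions per 50 kb window and per protein-coding locus (gene span of the RefSeq GRCm38 table with 10 kb flanks). Tests used edgeR 4.0.16 in R 4.3.3 (TMM, filterByExpr, quasi-likelihood, Benjamini-Hochberg adjusted p under 0.05, standard error from the F statistic), with DESeq2 1.42.0 as an alternative, and were tested on simulated data. The 17 gene lists (288 genes, 231 tested) and the comparison were chosen with earlier results of these data known. Named were the 10 highest and 10 lowest loci and 6 highest and 6 lowest windows past the threshold whose animals did not overlap and whose mean reached the median of all, up to 5 members a list by adjusted p, and defining markers; further members are named to complete a count, and a few listed genes are not reported here. Counting intervals (95%) cover counting error only. Replicate numbers were not treated as pairs.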

Additional observations from a re-analysis of the deposited data

Results flagged for a closer look

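Syn1Cre animal 5 lay apart from the other 5 Syn1Cre animals at a gap that Dixon's test marks at the 95% level (critical ratio 0.625 for 6 samples). Of 40 groups tested 16 were marked. Chance marks about 1 in 20 of independent groups, but these share animals and in part bases, so the marks are not independent. Animal 5 had a summed level over the astrocyte and astroglial lists of 29637.3 CPM. It was highest at Slc1a2 (718.59), Sox9 (110.18), Tmem247 (28.743), Olig1 (86.23), Capn9 (114.97), Rnase13 (81.44), Cstdc2 (59.882) and Pamr1 (847.93). It was also highest in the windows near Pabpc6 (75.104), at 1700012B07Rik (90.125), near Sall3 (42.559), near Slc1a3 (110.15), near Tmem182 (105.15) and near Zdhhc21 (87.622). Syn1Cre animal 6 was highest at Sp9, with 134.08 CPM.

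Of the 175 loci at which Frontflip_GFAPCre differed from GFAPCre by edgeR, 9 are among the highest and lowest named loci and the markers Slc1a2, Sox9, Gad2 and Dlx1. The log2 fold change, Frontflip_GFAPCre minus GFAPCre, was 0.90 for Slc1a2 (adjusted p = 0.00213), 1.74 for Tmem247 (adjusted p = 0.00146), 1.43 for 1700012B07Rik (adjusted p = 0.00475), 1.19 for Gm12695 (adjusted p = 0.0457), 1.22 for Capn9 (adjusted p = 0.00213), 1.13 for Rnase13 (adjusted p = 0.0256), 1.21 for Cstdc2 (adjusted p = 0.0266), 0.87 for Id3 (adjusted p = 0.0476) and 1.47 for Pamr1 (adjusted p = 2.62e-05). These comparisons share the Frontflip_GFAPCre animals.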

How the results depend on the processing

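With Syn1Cre animals 4 to 6 only, the difference of mean log10 insertions was -0.719 (exact permutation p = 0.100, the smallest 3 against 3 can give), and 285 windows, 175 loci and 10 astrocyte list loci were called. With insertions of at least 2 reads, 292 windows, 131 loci and 15 astrocyte list loci were called, and the difference in the share near gene ends was -0.067 percentage points. Over distinct positions it was 1.28 (exact permutation p = 0.0119), and the difference in the share inside genes was 0.13. With the gene body without flanks, 196 loci, 11 astrocyte list loci and 12 GABA, Dlx and interneuron list loci were called. Without a filter on low counts 41 astrocyte list loci were called. With Syn1CreNeg animals 4 to 6 only, 232 loci differed from Frontflip_GFAPCre. Leaving out single animals gave 148 to 1611 windows, 57 to 822 loci, 1 to 48 astrocyte list loci and 15 to 25 GABA, Dlx and interneuron list loci, with 17 to 396 loci against GFAPCre and 6 to 231 against Syn1CreNeg. The sign turned for Pou3f3 without flanks (-0.0075), and for Gfap (-0.40), Mbp (-0.18) and Olig2 (-0.11) with at least 2 reads. The causes were not tested. With the replicate number as a block, 1662 windows, 1061 loci and 53 astrocyte list loci were called. Animals numbered 4 to 6 exist only in Syn1Cre, so in that fit they, animal 5 among them, do not inform the contrast. Correlations of deviations between same-numbered animals were 0.07, 0.04 and -0.12. The labels do not say what the numbers stand for, and these values cannot decide whether such animals are linked. Of the 401 called loci, 60 were followed through the settings, though some settings did not cover all 60. Without Frontflip_GFAPCre animal 3, 21 of the 60 kept the call and 39 lost it. Thinned to the shallowest animal, 327 of 3508 tested loci were called, 238 higher and 89 lower, with 34 of 55 astrocyte list loci.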
